A study of Rattus norvegicus with 10 samples.

Results

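The proteasome genes were examined in the left hippocampus of female rats carrying the TgF344 transgenic Alzheimer's disease background, by sequencing of mRNA libraries. Members were all gene symbols in the deposited count table that begin with Psma, Psmb, Psmc, Psmd, Psme or Psmf followed by a number. This gave 46 of the 17168 symbols, and all 46 passed the filter on low counts that left 11791 genes. Of the 46, 31 encode constitutive subunits of the 26S proteasome (14 of the 20S core and 17 of the 19S cap). The rest are 3 chaperones of the cap base, 4 activators, the inhibitor Psmf1, 3 immunoproteasome subunits, the tissue-restricted Psma8 and Psmb11, the paralog symbol Psma3l, and Psmc3ip. Psmc3ip shares the prefix only through its name: it encodes a partner of a cap ATPase that acts in meiotic recombination, not a subunit.

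All 10 animals carried the transgene (genotype Tg-AD), were female and were 11 months old at perfusion, and no wild-type animals were analysed here. The 5 untreated animals ate rodent chow without drug. The 5 RG2833 animals ate chow with 750 mg RG2833 per kg from 5 months of age, for 6 months. RG2833 blocks HDAC1 and HDAC3, which are enzymes that remove acetyl groups from histones. As background, the TgF344-AD line carries mutant human APP and presenilin transgenes under a prion promoter. A blue food dye served to tell the diets apart. The comparison asks how RG2833 changes hippocampal gene expression against untreated transgenic animals.

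The 26S proteasome degrades proteins that carry ubiquitin chains. Its 20S core is a barrel of outer alpha rings, which gate the entry, and inner beta rings, in which Psmb5, Psmb6 and Psmb7 hold the proteolytic sites. The 19S cap has a base of ATPases that unfold the substrate and a lid that removes ubiquitin. Activated microglia and cells exposed to interferon replace the proteolytic subunits by Psmb8, Psmb9 and Psmb10, which forms the immunoproteasome. In neurons the proteasome turns over synaptic proteins and takes part in plasticity.

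Some properties of the libraries bear on every value below. Total estimated counts ran from 8764266 to 11311673 per animal, and the members had mean counts between 29.6 and 2449 per animal. Ribosomal RNA loci took a share of the counts that was 2.70% to 5.36% in untreated and 1.13% to 1.96% in RG2833 animals, without overlap, so this share and the treatment cannot be told apart. Untreated replicate 1 held choroid plexus transcripts: Ttr, the transthyretin gene, reached 2381 CPM (counts scaled to a common library size) there, while its highest level elsewhere was 38.4 CPM. On the first principal component, untreated replicate 4 had a score inside the RG2833 range. Counts of called members and the core and cap medians are therefore also given without these animals. In bulk tissue, fewer cells of a type and less RNA per cell cannot be told apart. 

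Promoter sequences are shown for the 4 members whose 5 RG2833 values lay entirely to one side of the 5 untreated values, 3 below (Psma5, Psma6 and Psmb1) and 1 above (Psmd3). Each is the 250 bases before the annotated start, from RefSeq on the GRCr8 build, with CCAAT, the box bound by the factor NF-Y, in capitals in either orientation. Psma5 lies at chr2:198584255-198584504 (+ strand), Psma6 at chr6:78514097-78514346 (+), Psmb1 at chr1:65134771-65135020 (- strand) and Psmd3 at chr10:84139688-84139937 (+).
Psma5: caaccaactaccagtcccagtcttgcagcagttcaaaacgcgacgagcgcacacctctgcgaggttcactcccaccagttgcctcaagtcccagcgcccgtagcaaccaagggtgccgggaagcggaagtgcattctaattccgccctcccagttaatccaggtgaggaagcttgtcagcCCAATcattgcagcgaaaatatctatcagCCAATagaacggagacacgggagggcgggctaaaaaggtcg
Psma6: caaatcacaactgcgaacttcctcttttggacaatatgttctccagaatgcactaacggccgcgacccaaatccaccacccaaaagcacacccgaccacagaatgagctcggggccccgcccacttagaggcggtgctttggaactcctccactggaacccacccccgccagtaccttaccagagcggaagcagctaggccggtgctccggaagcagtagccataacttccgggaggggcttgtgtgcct
Psmb1: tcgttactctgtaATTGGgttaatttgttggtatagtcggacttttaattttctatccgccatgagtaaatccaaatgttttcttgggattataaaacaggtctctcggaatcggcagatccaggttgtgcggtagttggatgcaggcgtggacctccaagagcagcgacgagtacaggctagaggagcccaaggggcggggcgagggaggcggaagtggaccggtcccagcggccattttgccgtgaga
Psmd3: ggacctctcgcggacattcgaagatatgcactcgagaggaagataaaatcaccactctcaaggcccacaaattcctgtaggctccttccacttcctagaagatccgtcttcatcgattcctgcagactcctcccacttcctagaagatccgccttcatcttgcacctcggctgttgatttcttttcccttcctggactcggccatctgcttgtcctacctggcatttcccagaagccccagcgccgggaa
The Psma5 stretch holds 2 CCAAT boxes, the Psmb1 stretch holds 1 in the opposite orientation, and those of Psma6 and Psmd3 hold 0. In the whole window of 300 bases (250 before to 50 after the start, both strands), CCAAT was present in 9 of 13 20S core promoters found in the table (69.2%), in 5 of 14 19S promoters (35.7%) and in 37.5% of all 33469 promoters. TGACNNNGC, the core of the antioxidant response element bound by NFE2L1 and NFE2L2, was present in 4 of 13 20S core promoters (Psma3, Psmb2, Psmb5 and Psmb6), in 2 of 14 19S promoters and in 12.1% of all. The first listed promoter of each member was used, whereas the 33469 were not limited in this way or to genes tested here. The shares are therefore not of like sets. These are matches of letters only, and no binding was measured.

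Estimated levels of proteasome transcripts lay slightly below those of untreated animals in RG2833 animals, more so for the 20S core than for the cap; the difference between core and cap was not tested. In all 14 core genes the estimated log2 fold change (RG2833 over untreated) was below 0 (12 of 14 when the ribosomal RNA share entered the model), with a median of -0.22, where 50.6% of all tested genes were below 0 and their median was 0.00. In the 17 cap genes it was below 0 in 11, with a median of -0.06. The changes were small: none of these 31 genes differed by more than 18.5% in either direction. The cap subunit genes Shfm1 (Sem1) and Adrm1 have other symbols and are not among the 31. Shfm1 had a log2 fold change of -0.33 (20.5% lower) and Adrm1 one of 0.17, as given below. At an adjusted p under 0.05 (quasi-likelihood test of edgeR, adjusted over all genes after Benjamini and Hochberg), 1 of the 46 members was called, Psma5, which was lower. The same rule called 5.08% of all tested genes (2.67% lower and 2.41% higher), so the members' share of calls was no higher than the background. The number of members called was 0 without untreated replicate 1 (1.64% of all genes called), 7 without untreated replicate 4 (13.1%), 7 with the DESeq2 Wald test (10.9%) and 0 when the ribosomal RNA share entered the model (0.017%). At an adjusted p under 0.1, 7 members passed (Psma1, Psma5, Psma6, Psmb4, Psme1 and Psme2 lower, Psmd3 higher), where 12.4% of all genes did.

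At an unadjusted p under 0.05, 18 of the 46 members passed, 17 lower and 1 higher. Over all tested genes 24.5% passed, 12.7% lower and 11.8% higher. By role these were 10 of 14 core genes, 5 of 17 cap genes, 2 of 4 activators and Psma8. When the ribosomal RNA share entered the model, 0 of 14 core genes and 1 of 17 cap genes passed, where 4.44% of all genes did. With 1 surrogate variable these were 3 and 1, where 11.4% of all genes passed. The 3 members lower without overlap of the groups compare with 3.47% of all genes, and the 1 higher with 3.8%; in either direction 7.27% of all genes showed no overlap. Without untreated replicate 1, 8 of 14 core genes had an unadjusted p under 0.05, where 21.6% of all genes did. In that fit the core median was -0.17 with 14 of 14 below 0, and the cap median was -0.02. Without untreated replicate 4 they were -0.22 and -0.07.

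**Figure D1:**
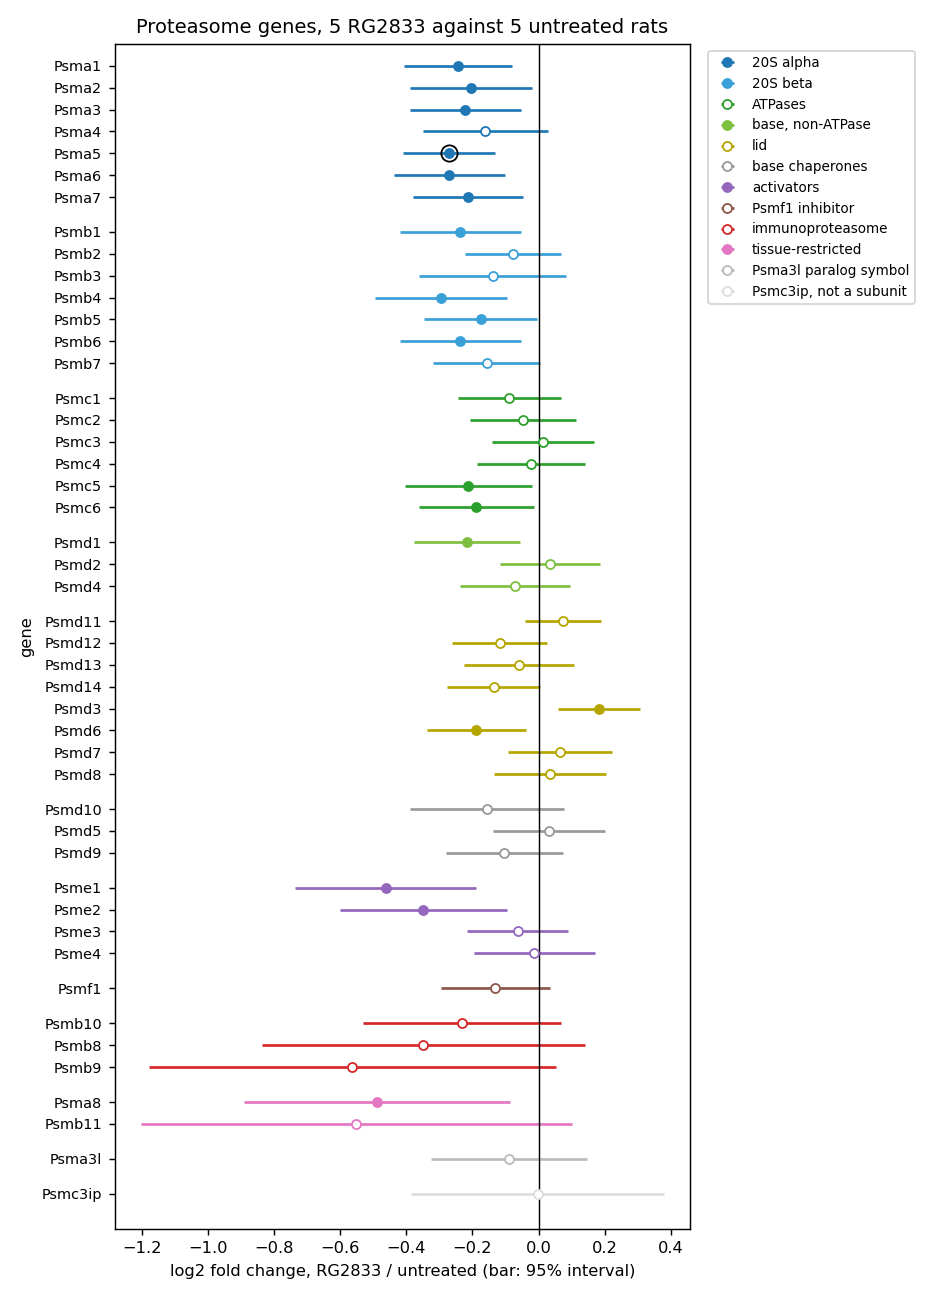
Estimated log2 fold change of each of the 46 members (x axis, RG2833 over untreated, bars are 95% intervals), grouped by role on the y axis. Filled points have an unadjusted p under 0.05 and the black ring marks Psma5, the 1 member called at an adjusted p under 0.05; the 14 core genes all lie left of 0 and the cap genes lie on both sides.

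The alpha subunits form the outer rings of the core. Psma5 was at 73.6, 65.1, 67.9, 65.3 and 60.6 CPM in untreated replicates 1 to 5 and at 55.9, 56.3, 54.99, 54.00 and 54.3 CPM in RG2833 replicates 1 to 5. Every RG2833 animal lay below every untreated animal, and the RG2833 animals lay within a few CPM of each other. Psma5 fell by 17.1%, from 66.5 ± 4.74 to 55.1 ± 0.987 CPM (SD, n = 5). This is a log2 fold change of -0.27 with a standard error of 0.06 (adjusted p in edgeR = 0.0358). This call was kept in 2 of the 10 fits that each left out 1 animal (without untreated replicate 4 and without untreated replicate 5), and the adjusted p over the 10 ran from 0.0173 to 0.0978. Over the same 10 fits its log2 fold change ran from -0.30 to -0.23, nearest to 0 without untreated replicate 1. When the ribosomal RNA share or 1 surrogate variable entered the model, the log2 fold change of Psma5 was -0.26 and -0.28 and it was not called; these models called 0.017% and 0.0424% of all genes.

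Psma6 was at 108, 90.8, 100.5, 90.1 and 92.02 CPM in untreated and at 82.9, 79.3, 78.6, 88.2 and 70.3 CPM in RG2833 animals. The groups did not overlap, although RG2833 replicate 4 came close to the lowest untreated animals. Its log2 fold change of -0.27 ± 0.08 (SE) missed the threshold (edgeR adjusted p = 0.0640). Psma1 had values of 117.9, 98.99, 105.9, 96.8 and 103.1 CPM against 98.9, 87.9, 86.2, 88.6 and 80.1 CPM, a log2 fold change of -0.24 with a standard error of 0.08 (adjusted p in edgeR = 0.0782), with RG2833 replicate 1 inside the untreated range. Psma2, Psma3 and Psma7 had log2 fold changes of -0.20, -0.22 and -0.21 (unadjusted p under 0.05) and Psma4 one of -0.16, with edgeR adjusted p-values from 0.102 to 0.275. Without untreated replicate 1 the log2 fold change of Psma4 was -0.11. Psma2 was at 105.7, 87.6, 91.5, 96.5 and 81.9 CPM in untreated and at 72.8, 87.8, 76.1, 88.6 and 76.7 CPM in RG2833 animals, and untreated replicate 1 was the highest. Psma3 was at 46.3, 47.4, 46.2, 55.8 and 50.2 CPM against 42.5, 42.5, 39.7, 39.7 and 46.7 CPM, with RG2833 replicate 5 inside the untreated range. Psma7 was at 153.1, 142.1, 136.4, 131.4 and 121.8 CPM against 123.6, 127, 118.5, 115.8 and 105.2 CPM, with overlap only at untreated replicate 5 and RG2833 replicates 1 and 2. The counts of Psma3 are fractional in all 10 animals, so part of its reads are shared with other loci, and the GRCr8 gene table merges the symbol Psma3l with Psma3. Psma3l had a log2 fold change of -0.09 ± 0.11 (SE), which ran from -0.15 without RG2833 replicate 3 to -0.03 without RG2833 replicate 5. With the counts of both summed, the median of the 14 core genes was -0.21.

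The beta subunits form the inner rings. Psmb4, a structural subunit, was at 136.4, 117.7, 117.1, 106.5 and 101.8 CPM in untreated and at 102.8, 97.1, 90.2, 101.5 and 80.6 CPM in RG2833 animals. Untreated replicate 5 lay inside the RG2833 range. The log2 fold change of Psmb4 was -0.29 with a standard error of 0.09 (adjusted p in edgeR = 0.0795). It was the farthest from 0 among the 31 constitutive subunit genes with Psm symbols. Psmb1, also structural, was at 180.3, 158.5, 161.2, 140.5 and 141.4 CPM against 137.5, 139.8, 129.1, 140.0 and 117.1 CPM. The groups of Psmb1 were separate by a narrow margin, between untreated replicate 4 and RG2833 replicate 4 (log2 fold change -0.24, standard error 0.08, adjusted p in edgeR = 0.109).

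Of the 3 proteolytic subunits, Psmb6 (caspase-like site) was at 118, 95.5, 108.1, 93.3 and 88.4 CPM in untreated and at 91.00, 87.9, 83.9, 86.5 and 77.8 CPM in RG2833 animals. Psmb5 (chymotrypsin-like site) was at 135.1, 108.6, 124.1, 108.6 and 106.9 CPM against 109.9, 101.3, 104, 106 and 95.3 CPM. Psmb7 (trypsin-like site) was at 224.4, 189.7, 213.2, 187.7 and 194.7 CPM against 194, 189.4, 171.3, 182.9 and 167.8 CPM. In all 3 the groups overlapped and untreated replicate 1 was the highest animal. Their log2 fold changes were -0.24, -0.18 and -0.16 (edgeR adjusted p = 0.113, 0.192 and 0.215). Psmb2 and Psmb3 had log2 fold changes of -0.08 and -0.14 (edgeR adjusted p = 0.507 and 0.426). Without RG2833 replicate 5 the log2 fold change of Psmb2 was -0.04, and without untreated replicate 1 the log2 fold change of Psmb3 was -0.06.

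**Figure D2:**
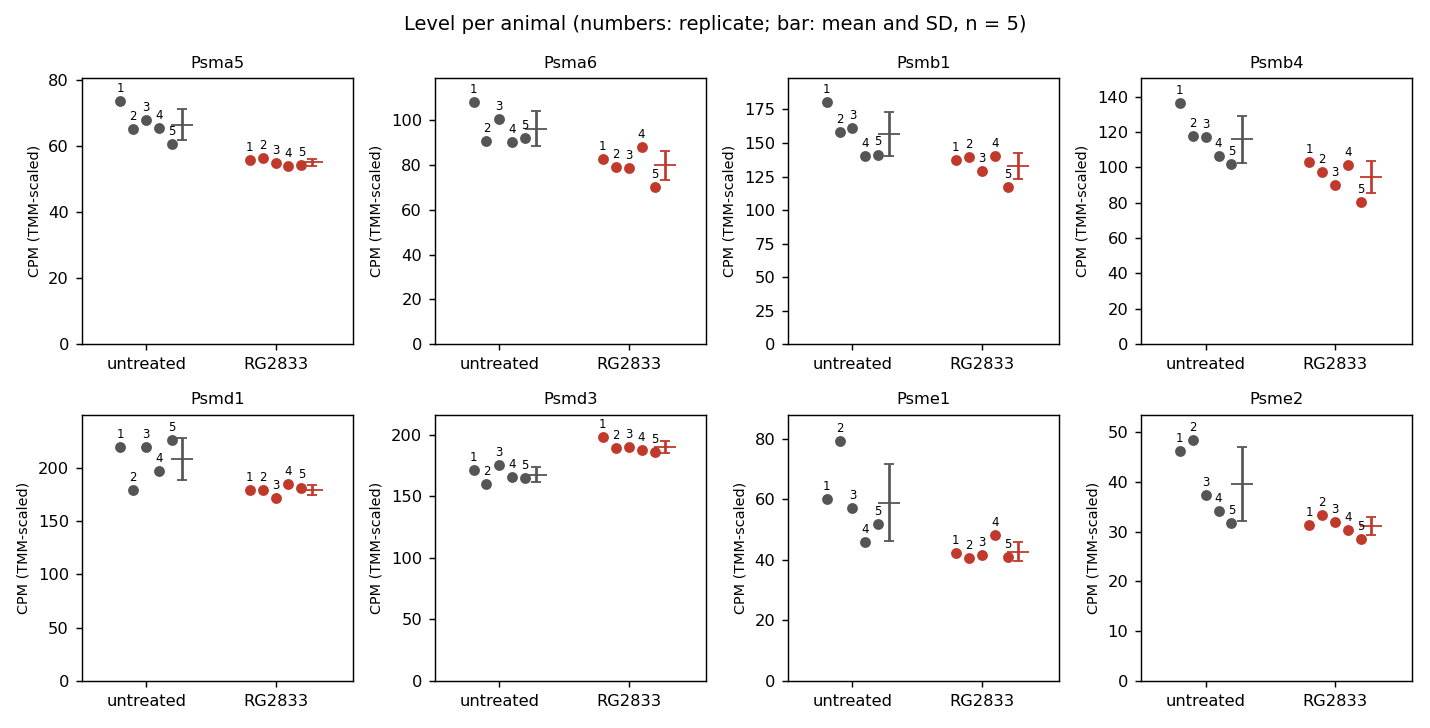
Level of 8 members in each animal (y axis, CPM after library scaling; numbers are replicates, the cross and bar are mean and SD, n = 5). Psma5 and Psma6 are lower and Psmd3 is higher in every RG2833 animal than in any untreated animal, Psmb1 is separated by a narrow margin, and untreated replicate 1 is the highest animal for the 4 core genes shown.

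The ATPases Psmc1 to Psmc6 form the unfolding ring of the cap. Psmc5 was at 297.8, 283.1, 276.7, 219.5 and 235.7 CPM in untreated and at 229.5, 237.5, 213.7, 233.6 and 218.1 CPM in RG2833 animals. Untreated replicates 1 to 3 lay above all RG2833 animals, whereas replicates 4 and 5 lay among them. The log2 fold change of Psmc5 was -0.21 with a standard error of 0.09 (adjusted p in edgeR = 0.164), and it was 0.02 when the ribosomal RNA share entered the model. Psmc6 was at 129.9, 99.6, 126.9, 115.6 and 122.8 CPM against 105.8, 113.2, 99.9, 106.8 and 96.4 CPM, with untreated replicate 2 inside the RG2833 range (log2 fold change -0.19, standard error 0.08, adjusted p in edgeR = 0.173). The reads of Psmc6 are also partly shared with another locus, as its fractional counts show. Psmc1, Psmc2, Psmc3 and Psmc4 had log2 fold changes of -0.09, -0.05, 0.01 and -0.02, with 95% intervals that lay between -0.24 and 0.17. Without untreated replicate 1 the log2 fold change of Psmc1 was -0.04.

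In the base, Psmd1, the scaffold to which the ubiquitin receptor Adrm1 docks, was at 219.3, 178.9, 219.5, 196.8 and 226.2 CPM in untreated and at 179.2, 178.9, 171.8, 184.7 and 181.3 CPM in RG2833 animals. The RG2833 animals lay close together at the level of untreated replicate 2, the lowest of its group (log2 fold change -0.22, standard error 0.07, adjusted p in edgeR = 0.1001). The other scaffold, Psmd2, which binds the ubiquitin-like domains of shuttle factors, had a log2 fold change of 0.03 (95% interval -0.12 to 0.19), which was -0.00 with upper-quartile scaling. Psmd4, a ubiquitin receptor, had one of -0.07 (95% interval -0.24 to 0.10), which ran from -0.12 without untreated replicate 5 to -0.03 without untreated replicate 1.

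In the lid, Psmd3 was the member with the highest log2 fold change. It was at 171.7, 159.7, 175.4, 165.3 and 165.1 CPM in untreated and at 198, 189, 189.7, 187.7 and 186.3 CPM in RG2833 animals. Each RG2833 animal lay above each untreated animal, the opposite order to that of Psma5, Psma6 and Psmb1. The difference was 13.5%, from 167 ± 6.15 to 190.1 ± 4.60 CPM (SD, n = 5), and the log2 fold change of 0.18 ± 0.06 (SE) missed the threshold (edgeR adjusted p = 0.0795; 0.0813 to 0.152 over the 10 fits without 1 animal). Psmd6, another scaffold of the lid, was at 143.7, 115.4, 134, 129.8 and 134.3 CPM against 117, 114.7, 120.5, 117.8 and 106.8 CPM, with untreated replicate 2 among the RG2833 animals (log2 fold change -0.19, standard error 0.07, adjusted p in edgeR = 0.121). Psmd14, the deubiquitinase of the lid, had a log2 fold change of -0.14 with a standard error of 0.07 (adjusted p in edgeR = 0.221). For Psmd7, Psmd8, Psmd11, Psmd12 and Psmd13 the values lay between -0.12 and 0.07 (edgeR adjusted p from 0.297 to 0.818). In the fits without 1 animal Psmd7 ran from 0.02 to 0.10, Psmd8 from -0.00 to 0.10 and Psmd13 from -0.11 to -0.02. With upper-quartile scaling, 14 rather than 11 of the 17 cap genes were below 0. This scaling also moved the median of all tested genes, from -0.003 to -0.039.

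The relation of core to cap was also measured within each library, where no scaling between libraries enters. This measure was chosen after the values were seen and carries no test. For each 100 counts of the 17 cap genes there were 61.2, 60.7, 58.1, 58.4 and 55.8 counts of the 14 core genes in untreated replicates 1 to 5. In RG2833 replicates 1 to 5 there were 54.9, 54.0, 52.5, 52.9 and 50.7. Every RG2833 animal lay below every untreated animal, and the means were 58.8 ± 2.18 and 53.0 ± 1.58 (SD, n = 5). The summed level of the core genes was 1389.9 to 1715 CPM in untreated and 1198 to 1385 CPM in RG2833 animals, while that of the cap genes overlapped (2448 to 2803 against 2362 to 2554 CPM). All 31 subunit genes together took 0.391% to 0.451% of all counts in untreated and 0.353% to 0.386% in RG2833 animals. The share of ribosomal RNA loci separated the same animals in the same way, and its part in these ratios was not tested.

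**Figure D3:**
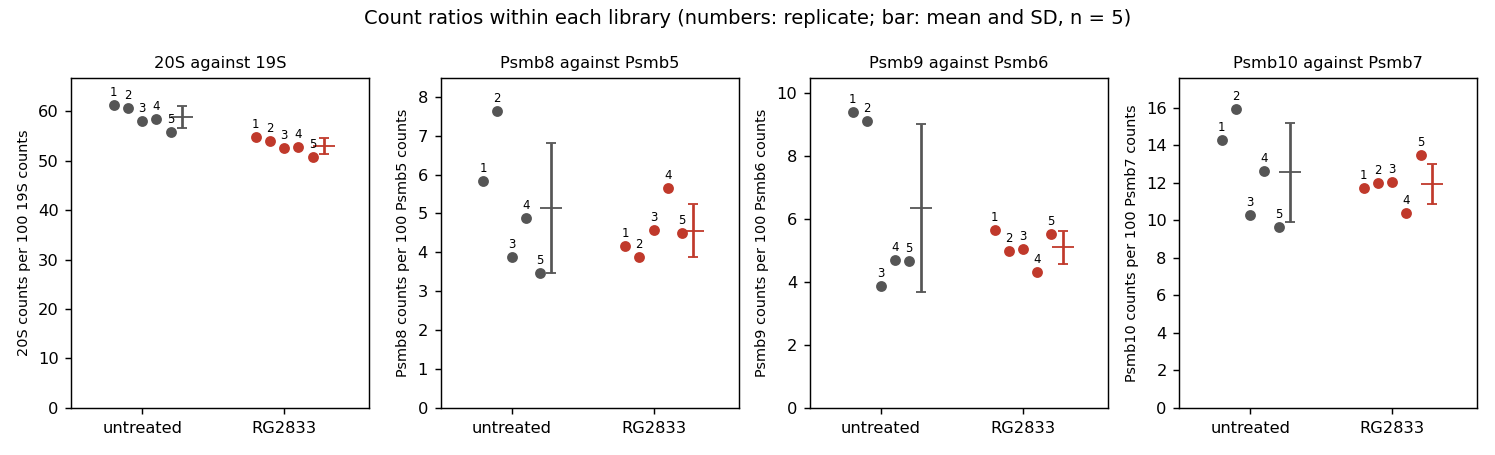
Count ratios within each library (y axes, counts per 100 counts of the reference genes; numbers are replicates, the cross and bar are mean and SD, n = 5). The ratio of core to cap lies between 50.7 and 54.9 in RG2833 and between 55.8 and 61.2 in untreated animals, whereas the 3 ratios of immunoproteasome to constitutive subunits overlap.

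The activators open the core without the cap. Psme1 and Psme2, which together form the interferon-inducible activator ring, had the lowest log2 fold changes of the 4. Psme1 was at 60.1, 79.3, 57.3, 45.8 and 51.7 CPM in untreated and at 42.3, 40.5, 41.5, 48.2 and 40.9 CPM in RG2833 animals. Only RG2833 replicate 4 reached the untreated range. The log2 fold change of Psme1 was -0.46 with a standard error of 0.13 (adjusted p in edgeR = 0.0546), and it was called in 2 of the 10 fits without 1 animal. Psme2 was at 46.1, 48.4, 37.4, 34.2 and 31.7 CPM against 31.3, 33.3, 31.9, 30.3 and 28.5 CPM, with untreated replicates 1 and 2 well above the rest (-0.35, standard error 0.12, adjusted p in edgeR = 0.0929). The counts of Psme2 are fractional in 9 animals, so part of its reads are shared with copies. Psme3, which forms the nuclear activator, and Psme4, the large single-chain activator, had log2 fold changes of -0.06 (95% interval -0.22 to 0.09) and -0.01 (-0.19 to 0.17). In the fits without 1 animal Psme3 ran from -0.10 to -0.04 and Psme4 from -0.06 to 0.03.

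Psmf1, an inhibitor of the core in vitro, had a log2 fold change of -0.13 with a standard error of 0.08 (adjusted p in edgeR = 0.309). The base chaperones Psmd5, Psmd9 and Psmd10, which leave the cap once it is assembled, had values of 0.03, -0.10 and -0.15 (edgeR adjusted p from 0.396 to 0.842). In the fits without 1 animal Psmd5 ran from 0.00 (without untreated replicate 2) to 0.08 (without untreated replicate 5), and Psmd9 from -0.15 (without untreated replicate 3) to -0.05 (without untreated replicate 1).

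The immunoproteasome genes had few counts and varied widely among untreated animals. Psmb8 was at 7.89, 8.29, 4.82, 5.31 and 3.70 CPM in untreated and at 4.58, 3.92, 4.75, 6.00 and 4.29 CPM in RG2833 animals. Psmb9 was at 11.1, 8.69, 4.17, 4.37 and 4.13 CPM against 5.15, 4.37, 4.24, 3.72 and 4.29 CPM, and Psmb10 at 32.03, 30.3, 21.96, 23.7 and 18.8 CPM against 22.8, 22.7, 20.7, 19.04 and 22.6 CPM. In all 3 genes untreated replicates 1 and 2 were the 2 highest animals, and untreated replicates 3 to 5 lay within or close to the range of the RG2833 animals. The log2 fold changes of Psmb8, Psmb9 and Psmb10 were -0.35, -0.56 and -0.23, and none passed (edgeR adjusted p = 0.359, 0.241 and 0.320). Without untreated replicate 1 the log2 fold change of Psmb9 was -0.29 and the log2 fold change of Psmb10 was -0.14, and without untreated replicate 2 the log2 fold change of Psmb8 was -0.20. The 95% interval of Psmb9 ran from -1.18 to 0.05, so a sizeable drop could not be told from no change at a mean count of 63.0 in untreated animals.

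Each immunoproteasome subunit takes the place of one constitutive subunit, so the paired counts were also compared within libraries. For 100 counts of Psmb5 there were 3.46 to 7.64 counts of Psmb8 in untreated and 3.87 to 5.66 in RG2833 animals. For 100 counts of Psmb6 there were 3.86 to 9.40 of Psmb9 and 4.31 to 5.66, and for 100 counts of Psmb7 there were 9.67 to 16.0 of Psmb10 and 10.4 to 13.5. In each pair the RG2833 range lay inside the untreated range. The counts are not per transcript length, so the ratios compare animals and not the amounts of the paired transcripts.

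Beside these genes, 14 listed interferon and antigen presentation genes had a median log2 fold change of -0.16, and 1 of them, the interferon-induced Mx1, was called lower, where 2.67% of all genes were (from 17.8 ± 10.3 to 3.36 ± 1.40 CPM, SD, n = 5; edgeR adjusted p = 0.0189; the groups overlapped). The counts of Mx1 are fractional in all 10 animals, so part of its reads are shared with other loci. Of 5 microglial markers, 1 (Aif1) was called lower, against the same 2.67% (log2 fold change -0.74, edgeR adjusted p = 0.0496). Csf1r, Tmem119 and P2ry12 had values of -0.03, -0.11 and -0.29, Cx3cr1 had one of 0.20, and the median was -0.11. The summed level of the 5 was 225.9 to 325.9 CPM in untreated and 205.7 to 272.3 CPM in RG2833 animals. The 4 endothelial and mural markers summed to 178.7 to 260.5 and 168.5 to 185.1 CPM, with 0 called. None of these markers was at 0. Their part in the values of Psme1, Psme2 and the immunoproteasome genes was not tested.

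Psma8, an alpha subunit of the testis proteasome, and Psmb11, a beta subunit of the thymus proteasome, were near the bottom of the measured range. Psma8 was at 4.58, 5.89, 3.98, 4.84 and 4.55 CPM in untreated and at 2.38, 3.30, 3.51, 3.31 and 4.50 CPM in RG2833 animals, which overlap in RG2833 replicate 5 (log2 fold change -0.49, standard error 0.19, adjusted p in edgeR = 0.1298). Psmb11 was at 2.54 to 4.47 and 1.25 to 3.34 CPM (edgeR adjusted p = 0.277). Both have fractional counts in all 10 animals, so part of their reads are shared with other loci. These values do not show that either gene was transcribed here. Psma3l, Psmd9 and Psme3 also have fractional counts in all 10 animals. Psmc3ip had a log2 fold change of -0.00 ± 0.18 (SE).

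Genes that work with the proteasome but have other symbols were described from a separate list, of which 28 are reported and all 28 were tested. Of these, 3 were called lower and 0 higher, where 2.67% and 2.41% of all genes were (5.08% in either direction). At an unadjusted p under 0.05, 8 were lower and 1 was higher, where 12.7% and 11.8% of all genes were. The number called was 1 without untreated replicate 1, where 1.64% of all genes were called. It was 5 (4 of them lower) without untreated replicate 4, where 13.1% of all genes were called. The 3 calls ended when the ribosomal RNA share or 1 surrogate variable entered the model, where 0.017% and 0.0424% of all genes were called. The log2 fold change of Pomp was then -0.36 and -0.48, the log2 fold change of Shfm1 was -0.31 and -0.33, and the log2 fold change of Rps27a was -0.28 and -0.52. The median log2 fold change of the 28 genes was -0.06.

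Core assembly genes had the lowest median log2 fold change of the groups in the list, -0.37, with all 4 below 0 (when the ribosomal RNA share entered the model, the log2 fold change of Psmg1 was 0.11). Pomp, the maturation factor built into the nascent core and destroyed by it, was at 110.7, 94.4, 98.1, 79.4 and 71.7 CPM in untreated and at 62.96, 64.8, 59.6, 63.7 and 60.2 CPM in RG2833 animals. The groups did not overlap. Pomp fell by 31.5% (log2 fold change -0.55, standard error 0.10, adjusted p in edgeR = 0.0183), a call kept in 6 of the 10 fits without 1 animal. The ring assembly chaperones Psmg1, Psmg2 and Psmg4 had log2 fold changes of -0.32, -0.41 and -0.32 (edgeR adjusted p = 0.113, 0.135 and 0.0644). For Psmg4 the groups did not overlap (16.1 to 20.2 against 13.9 to 15.9 CPM).

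Sem1, the smallest lid subunit, is listed under its older symbol Shfm1. It was at 69.6, 60.1, 55.6, 56.6 and 51.3 CPM in untreated and at 50.7, 46.6, 46.7, 46.3 and 42.5 CPM in RG2833 animals, again without overlap. Shfm1 fell by 20.5% (log2 fold change -0.33, standard error 0.09, adjusted p in edgeR = 0.0471), and the call was kept in 2 of the 10 fits without 1 animal. Adrm1, a ubiquitin receptor of the cap, had a log2 fold change of 0.17 with a standard error of 0.08 (adjusted p in edgeR = 0.229).

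Rps27a encodes ubiquitin fused to a ribosomal protein. It was at 456, 510.8, 409.2, 339 and 301.4 CPM in untreated and at 258.3, 269.8, 273.5, 281.4 and 265.4 CPM in RG2833 animals. It fell by 33.1% without overlap of the groups (log2 fold change -0.58, standard error 0.12, adjusted p in edgeR = 0.0268; called in 3 of the 10 fits without 1 animal). Ribosomal protein genes have many processed copies that can share reads, although the deposited counts of Rps27a are whole numbers. Ubb, a polyubiquitin gene, had a log2 fold change of 0.05 (95% interval -0.15 to 0.26; edgeR adjusted p = 0.771). The ubiquitin-activating enzyme genes Uba1 and Uba6 had values of 0.07 and -0.08 (edgeR adjusted p = 0.622 and 0.699).

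The 5 shuttle factors reported, which carry ubiquitinated substrates to the cap, were above 0 in the fit without covariates. Of these, only Ubqln1 and Ddi2 were followed under the other settings. The log2 fold change of Ddi2 was -0.25 when the ribosomal RNA share entered the model and -0.00 with 1 surrogate variable. Ubqln1 was at 124.3, 116.7, 139.1, 152.2 and 162.8 CPM in untreated and at 173.5, 170.6, 167.1, 168.4 and 179.5 CPM in RG2833 animals, higher without overlap (log2 fold change 0.31, standard error 0.09, adjusted p in edgeR = 0.0656). Ddi2 had a log2 fold change of 0.22 with a standard error of 0.13 (adjusted p in edgeR = 0.318), and Rad23b, Ubqln2 and Ubqln4 had values between 0.08 and 0.13. The zinc finger protein gene Zfand5, whose product binds the cap, was at 166.2 to 180.9 CPM in untreated and 139.4 to 159.6 CPM in RG2833 animals, lower without overlap (-0.20, standard error 0.06, adjusted p in edgeR = 0.0887). The deubiquitinases Usp14 and Uchl5 had log2 fold changes of -0.14 and -0.13. For Vcp, the unfoldase that extracts substrates, the value was -0.05 (95% interval -0.21 to 0.11), and among its cofactors Faf1 had one of -0.16 (edgeR adjusted p = 0.204) and Faf2 one of 0.17 (edgeR adjusted p = 0.229).

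**Figure D4:**
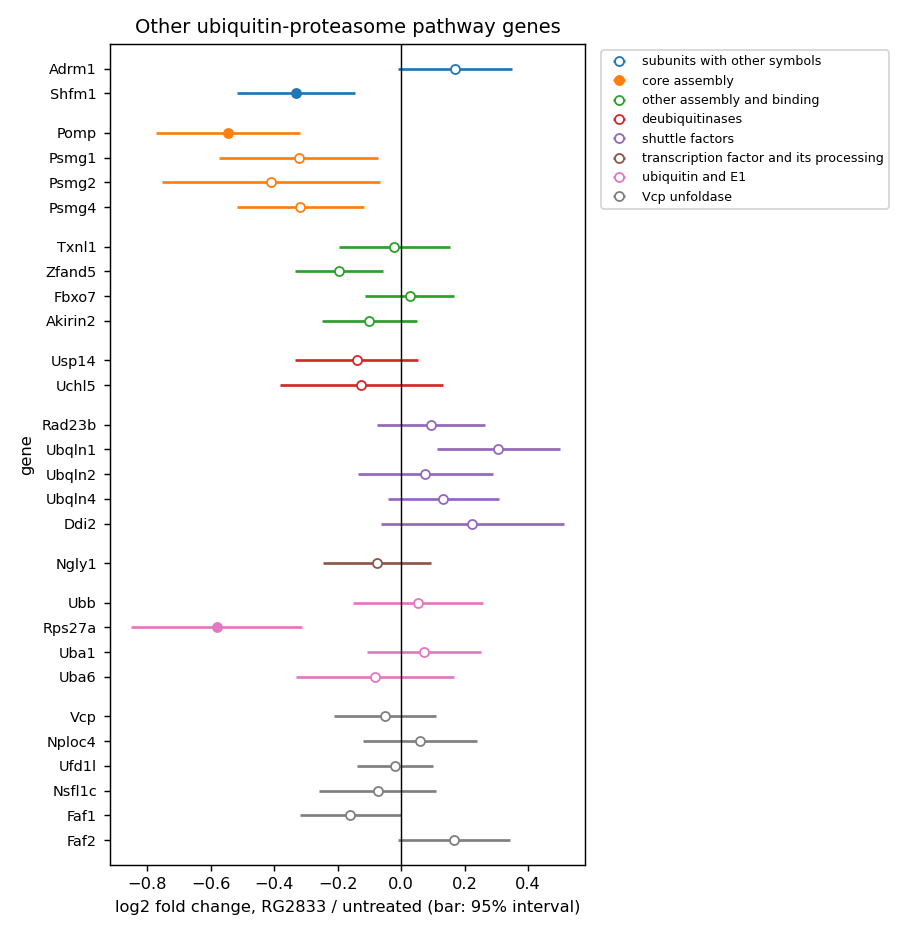
Estimated log2 fold change of 28 further genes of the ubiquitin-proteasome pathway (x axis, RG2833 over untreated, bars are 95% intervals), grouped by function on the y axis. Filled points, called at an adjusted p under 0.05, are Shfm1, Pomp and Rps27a; the 4 core assembly genes lie left of 0 and the 5 shuttle factors right of it.

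The subunit genes varied little between animals. The coefficient of variation (SD over mean, in CPM) of the 31 constitutive subunit genes had a median of 8.62% among untreated and 5.42% among RG2833 animals, against 14.96% and 10.02% over all tested genes. These genes are also more deeply counted, with a median mean count of 1156 against 283.8. The immunoproteasome genes had medians of 33.3% and 11.8%. Untreated replicate 1 was the highest of all 10 animals for 12 of the 14 core genes and 10 of the 17 cap genes, and for 1826 of all 11791 genes tested.

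Markers of other cell types were measured beside these genes. The 4 astrocyte and 4 oligodendrocyte markers had median log2 fold changes of 0.08 and 0.10. Untreated replicate 1 was the highest of all animals for all 4 oligodendrocyte markers. The 3 hippocampal granule and pyramidal markers summed to 188.6 to 893.1 CPM in untreated and 268.1 to 966.7 CPM in RG2833 animals. All 5 excitatory neuron markers were above 0, 2 of them called higher (Camk2a and Grin1, log2 fold changes 0.67 and 0.46), where 2.41% of all genes were called higher, and their summed level was 5365 to 7320 CPM in untreated and 7557 to 8316 CPM in RG2833 animals. Of 5 inhibitory neuron markers, 4 were below 0 and 0 were called (median log2 fold change -0.13). Gad2 was above 0, with a log2 fold change of 0.42 (edgeR adjusted p = 0.305), the farthest from 0 of the 5. The choroid plexus markers summed to 4.82 to 2423 CPM in untreated and 4.20 to 40.9 CPM in RG2833 animals, an overlap in which untreated replicate 1 alone was high, and without that animal the core median was -0.17, as given above. Genes with the shortest spans on the GRCr8 table were slightly lower (median log2 fold change -0.06 in the shortest of 5 equal groups of genes and 0.06 in the longest). The core genes had a median span of 10.7 kb and the cap genes of 12.3 kb. With the trend by span removed, an alternative chosen after seeing the data, the core median was -0.19 and the cap median was -0.05. The part of these markers in the core values was not tested.

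**Figure D5:**
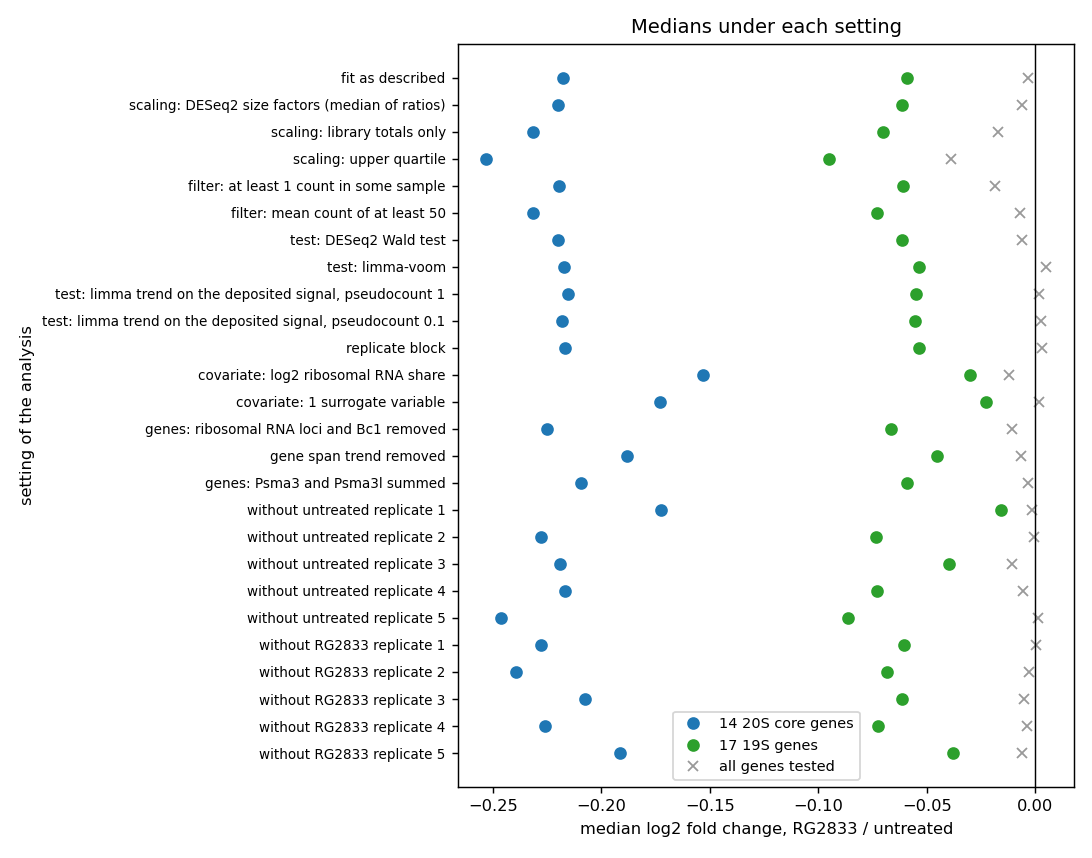
Median log2 fold change (x axis, RG2833 over untreated) of the 14 core genes, the 17 cap genes and all genes tested under each setting of the analysis (y axis). The core median stays between -0.25 and -0.15 and the cap median between -0.09 and -0.02 in the settings run.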

How the data were processed

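mRNA libraries of 10 left hippocampi were analysed from 2 deposited tables. The authors deposited RSEM expected counts per gene symbol, without normalization, and a signal in scaled counts (TMM, trimmed mean of M values), per the file names. Per the submitters' processing notes, bcl2fastq 2.17, Bowtie2 2.1.0, RSEM 1.2.15, edgeR and the rn6 build were used; the annotation is not given in the sources used here. Per the labels' protocols, libraries were strand-specific.

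Expected counts were rounded and filtered with filterByExpr. The quasi-likelihood test of edgeR 4.0.16 under R 4.3.3 was used with TMM scaling and no covariate, fitted on all 11791 genes with Benjamini-Hochberg adjustment; the standard error is the absolute log2 fold change over the square root of F. Log2 CPM used a prior count of 2. Levels are CPM of tested genes, and 3 counts equal 0.268 to 0.343 CPM. Precision covers counting and animals only. Genes are not compared in level, since no transcript lengths were used. By the rule for names, every member may be named, with values per animal for those at an unadjusted p under 0.05 and the 3 proteolytic pairs; pathway genes are named at an unadjusted p under 0.05 or as the 3 farthest from 0 otherwise, and the others named were added after their values were seen. Members and lists were chosen with earlier results of these data known.

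Within-group pairs of libraries differed by more than sampling noise (chi-square per degree of freedom 4.75 to 38.3), so none appeared to be 1 library deposited in duplicate; that each is a separate animal is per the labels. Same-numbered samples are different animals and were not paired. Alternatives used DESeq2 1.42.0, limma 3.58.1 and sva 3.50.0. The scripts were tested on simulated data. Promoter sequences were matched by symbol for 40 of 46 members. Of the listed pathway and interferon genes, 6 symbols were not analysed here, and some further pathway genes are not reported here. Protein sequences were not analysed here.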

Additional observations from a re-analysis of the deposited data

Results flagged for a closer look

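Of 138 sets of 5 animals checked (each gene or library measure in each group), 5 had 1 animal set apart by more than 0.71 of the set's range, the 95% limit of Dixon; about 1 in 20, or 6.9, would by chance. In untreated animals, Psmd11 was at 109.3 CPM in replicate 5 and 103.8 to 104.9 CPM in the others. In RG2833 animals, Psmd3 was at 198 CPM in replicate 1 against 186.3 to 189.7 CPM, and Psmd7 at 139 CPM in replicate 5 against 157.4 to 163.2 CPM. In RG2833 replicate 4, Psmd9 was at 41.5 CPM against 48.3 to 49.8 CPM and Psme1 at 48.2 CPM against 40.5 to 42.3 CPM.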

How the results depend on the processing

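The gene span trend and the sum of Psma3 and Psma3l were alternatives chosen after seeing the data. The medians of the core, cap and all constitutive subunit genes (-0.22, -0.06 and -0.16) were -0.15, -0.03 and -0.08 with the ribosomal RNA share as covariate and -0.17, -0.02 and -0.09 with 1 surrogate variable. In the 10 fits without 1 animal they ran from -0.25 to -0.17, -0.09 to -0.02 and -0.18 to -0.12. The number of called members, 1, was 2 with library totals only (5.05% of all genes called) and with a mean count of at least 50 (6.28%), 3 with upper-quartile scaling (5.2%), 7 with the DESeq2 Wald test (10.9%) and at an adjusted p under 0.1 (12.4%), and 0 with the replicate block (1.53%), the ribosomal RNA share as covariate (0.017%) or 1 surrogate variable (0.0424%); without 1 animal it ran from 0 to 7, and the share of all genes from 0.848% to 13.1%. Under the same settings, with the same shares of all genes, the number of called pathway genes, 3, was 6 with DESeq2 and at an adjusted p under 0.1, 1 with the replicate block and 0 with either covariate; without 1 animal it ran from 0 to 5. The 18 members at an unadjusted p under 0.05 (24.5% of all genes) became 1 with the ribosomal RNA share (4.44%) and 5 with the surrogate variable (11.4%). Without 1 animal they numbered 14 to 22, and the share of all genes ran from 19.3% to 29.4%. The cause was not tested. The numbers do not pair the animals (same-number correlations -0.319 to 0.151), and with the replicate block the log2 fold change of Psma5 was -0.27 and it was not called.

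Of 1447 values of 58 genes, 43 changed sign, none with an adjusted p under 0.05 (lowest 0.633). The log2 fold changes that did so are these. With the ribosomal RNA share as covariate, they were 0.0179 for Psma4, 0.00919 for Psmb3, 0.566 for Psmc3ip, 0.0175 for Psmc5, -0.0724 for Psmd2, 0.0722 for Psmd4, -0.0510 for Psmd5, 0.0947 for Psme3, 0.0798 for Psmf1, -0.247 for Ddi2 and 0.108 for Psmg1. With 1 surrogate variable, they were 0.0215 for Psmc2, 0.182 for Psmc3ip, 0.0308 for Psme3 and -0.00270 for Ddi2. With library totals, it was -7.693e-05 for Psmc3. With upper-quartile scaling, they were -0.0233 for Psmc3, -0.0005074 for Psmd2, -0.00359 for Psmd5 and -0.00111 for Psmd8. With a mean count of at least 50, it was -0.00136 for Psmc3. With limma-voom, it was 0.0201 for Psmc3ip. With limma trend at pseudocount 1, it was 0.0195 for Psmc3ip. With limma trend at pseudocount 0.1, it was 0.0258 for Psmc3ip. With the replicate block, it was 0.0194 for Psmc3ip. With the span trend removed, they were 0.0779 for Psmc3ip and 0.00687 for Psmc4. Without 1 animal, the range was, for Psmc2 from -0.0733 to 0.00583, for Psmc3 from -0.0223 to 0.0496, for Psmc3ip from -0.0810 to 0.144, for Psmc4 from -0.0545 to 0.0423, for Psmd2 from -0.00846 to 0.0582, for Psmd8 from -0.00115 to 0.101 and for Psme4 from -0.0570 to 0.0317.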
